A study of Mus musculus with 12 samples.

Results

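Laminins, collagen IV, nidogens and perlecan are the main building blocks of the basement membrane, the thin sheet of extracellular matrix on which muscle, epithelial, fat and endothelial cells rest. The genes described are 10 rows of the deposited table, chosen by symbol: the laminin chain genes Lama2, Lama4, Lama5, Lamb1 and Lamc1, the collagen IV chain genes Col4a1 and Col4a2, the nidogen genes Nid1 and Nid2, and Hspg2, which encodes perlecan. They are 10 of 23184 symbols in the table. All 10 passed the filter for testing, a mean of at least 1 TPM (transcripts per 1000000 transcripts) over the 12 libraries, as did 11774 genes in all.

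The libraries are bulk RNA-seq of HL-1, a mouse atrial muscle cell line grown here in medium with fetal bovine serum, in 3 groups of 4. RE cells carry the genotype label WDR62+ and are KD cells given a further virus, made with pCDH, for wild-type WDR62 with a flag tag. KD cells received virus with a CRISPR guide against Wdr62, a gene for a protein of the centrosome and spindle pole, and carry the label WDR62-. CON cells had the genotype label WT and received viruses made with pCDH and lentiCRISPRv2, and the labels name pCDH for RE and CON but not for KD. The labels do not say whether the lines were clones or pools, or whether replicates were separate cultures. The p-values therefore speak of the spread among these libraries alone, which may be technical.

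Laminins are cross-shaped trimers of 1 alpha, 1 beta and 1 gamma chain. They polymerise at the cell surface and bind integrins and dystroglycan through the alpha chain. Collagen IV forms a second, covalently linked network, and its most widespread trimer combines the alpha 1 and alpha 2 chains. Nidogens and perlecan, a large heparan sulfate proteoglycan, join the laminin and collagen IV networks. In heart and skeletal muscle the sheath around each fibre carries laminin with the alpha 2 chain, and loss of that chain causes a congenital muscular dystrophy, whereas the alpha 4 chain is typical of blood vessel walls and the alpha 5 chain is widespread.

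The target and the label of the cells were checked first. Wdr62 ranged over 0.772 to 1.99 TPM in RE, 0.881 to 1.40 TPM in KD and 3.38 to 7.45 TPM in CON, and the log2 fold change in KD against CON was -1.67 ± 0.25 (SE, limma adjusted p = 0.000921). RE and KD differed by 0.05 ± 0.25 (limma adjusted p = 0.895), so mouse Wdr62 does not show the added construct, whose species and codons are not given in the sources used here. Of 12 heart muscle cell markers 4 averaged at least 1 TPM (Tnnt2, Myl4, Nkx2-5 and Gata4), while Myl7 and Actn2 were listed at 0 in every library and Myh6 and Ttn stayed below 1 TPM. None of 10 endothelial markers averaged 1 TPM over the 12 libraries. The 10 fibroblast markers, nearly all of whose TPM came from the collagen genes Col3a1 and Col1a2, summed to 1560 to 2520 TPM in RE, 2950 to 4250 TPM in KD and 2750 to 4270 TPM in CON, with Lum and Tcf21 listed at 0 throughout and Thy1 at most 0.072 TPM. The table sums to 1000000 TPM in each library and keeps no sequencing depth, so no counting interval is given, and in bulk RNA fewer cells of a type and less RNA per cell cannot be told apart.

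3 libraries stood apart from the rest of their groups in the level of long transcripts, which include 9 of the 10 genes. Tested genes were ranked by transcript length, and the 2341 longest, of 5028 bases or more, were summed up by their median deviation from each gene's mean. It was -0.73 in RE 1 and -0.997 in RE 3, against -0.11 in RE 2 and -0.13 in RE 4. It was -0.83 in CON 4, against 0.47 to 0.72 in CON 1, CON 2 and CON 3, and KD 1 and KD 2 (0.57 and 0.55) stood above KD 3 and KD 4 (-0.21 and 0.06). These and all log2 values below are on the log2(TPM + 1) scale unless said otherwise. The basement membrane genes are long: 9 of the 10 are among those 2341, all but Nid2 with 4876 bases, and Hspg2 is the longest with 14187. The results with all 12 libraries are therefore set beside values after a smooth trend on transcript length was subtracted from each library, called the length correction, or beside values without CON 4, RE 1 and RE 3, and the plot of log2 fold changes holds all 3 for every gene and comparison. The correction also removes any true difference between groups that follows length, and only 48 tested genes are as long as Hspg2, so it is least certain for that gene.

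**Figure D1:**
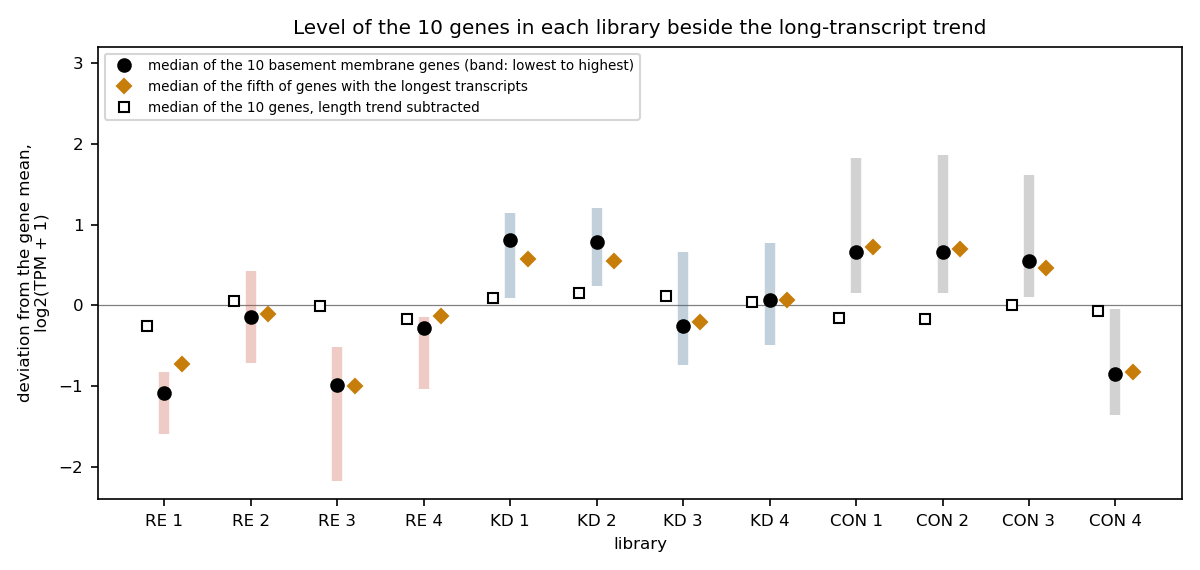
Deviation from the gene mean on the log2(TPM + 1) scale (y axis) in each of the 12 libraries (x axis). Circles give the median of the 10 basement membrane genes, bands their lowest to highest value, diamonds the median of the 2341 longest genes and open squares the median of the 10 genes after the length trend was subtracted. Circles and diamonds are lowest in RE 1, RE 3 and CON 4, and the open squares lie between -0.25 and 0.15.

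The medians of the 10 genes followed the long transcripts from library to library. They were -1.08, -0.14, -0.99 and -0.28 in RE 1 to RE 4, 0.80, 0.79, -0.25 and 0.07 in KD 1 to KD 4, and 0.67, 0.66, 0.55 and -0.85 in CON 1 to CON 4. After the trend was subtracted they lay between -0.25 (RE 1) and 0.15 (KD 2). Over the 12 libraries, which share their length trends, the 45 pairs of these genes had a median Pearson r of 0.834 as deposited and 0.0787 after the subtraction, which is a description of these libraries with no test.

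The collagen IV pair kept together under either treatment (r = 0.989 as deposited and 0.945 corrected), and its genes lie head to head on chromosome 8 of GRCm38. Col4a1 (ENSMUSG00000031502.11) runs from 11312826 down to 11198423 on the minus strand and Col4a2 (ENSMUSG00000031503.13) from 11312805 up to 11449287 on the plus strand. The genes thus overlap by 22 bases on opposite strands, and reads there cannot be told apart unless strand was used in counting. The windows from 250 bases before to 50 bases after each start are printed here because the pair is transcribed from 1 shared stretch of DNA. Both come from RefSeq (GRCm38.p6), Col4a1 at chr8:11312777-11313076 on the minus strand and Col4a2 at chr8:11312555-11312854 on the plus strand. Capitals mark the 78 bases that both windows hold, which read as reverse complements of each other.
Col4a1: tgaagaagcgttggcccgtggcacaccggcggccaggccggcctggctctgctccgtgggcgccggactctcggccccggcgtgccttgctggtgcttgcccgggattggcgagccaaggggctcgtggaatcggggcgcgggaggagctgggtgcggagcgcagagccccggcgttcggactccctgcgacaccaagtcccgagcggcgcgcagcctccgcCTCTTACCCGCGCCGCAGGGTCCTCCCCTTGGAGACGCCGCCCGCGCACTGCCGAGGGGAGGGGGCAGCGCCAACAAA
Col4a2: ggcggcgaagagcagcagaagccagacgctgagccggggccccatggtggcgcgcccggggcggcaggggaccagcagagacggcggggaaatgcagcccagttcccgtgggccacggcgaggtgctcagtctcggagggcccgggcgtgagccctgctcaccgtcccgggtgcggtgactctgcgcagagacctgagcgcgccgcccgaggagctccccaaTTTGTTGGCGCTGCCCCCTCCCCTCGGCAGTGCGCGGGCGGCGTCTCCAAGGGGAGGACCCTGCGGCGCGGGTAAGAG
The windows are 74.0% and 73.7% G and C. Of the letters GGGCGG, searched on both strands, 1 match lies in the Col4a1 window and 3 in the Col4a2 window, 1 of them in the shared stretch. CCAAT matched once in each window and not in the shared stretch, and TATAAA in neither. Among 32851 windows of this length, 35.7% hold GGGCGG, 37.4% CCAAT and 13.6% TATAAA. RefSeq windows were matched for 7 of the 10 genes (Lama2, Lama5, Lamb1, Col4a1, Col4a2, Nid1 and Hspg2), of which 7 hold GGGCGG, 4 hold CCAAT and 0 hold TATAAA.

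TPM is scaled by length, but the length trends of the libraries remain in it. The orders below therefore hold only for the values as deposited. In RE the order by mean TPM was Col4a1, Col4a2, Lamb1, Lamc1, Nid1, Hspg2, Lama5, Lama4, Nid2 and Lama2. In KD it was Col4a1, Col4a2, Lamc1, Lamb1, Nid1, Hspg2, Lama5, Lama4, Lama2 and Nid2. In CON it was Nid1, Lamb1, Lamc1, Col4a1, Col4a2, Hspg2, Lama5, Lama4, Lama2 and Nid2. The first 5 of CON had means of 196 to 166 TPM with SDs of 51.2 to 110 TPM, so their order is within their spread, as is that of Hspg2 and Lama5 in all groups and of Lama5 and Lama4 in KD. The step from Lama4 down to Lama2 was larger than the spread in every group.

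**Figure D2:**
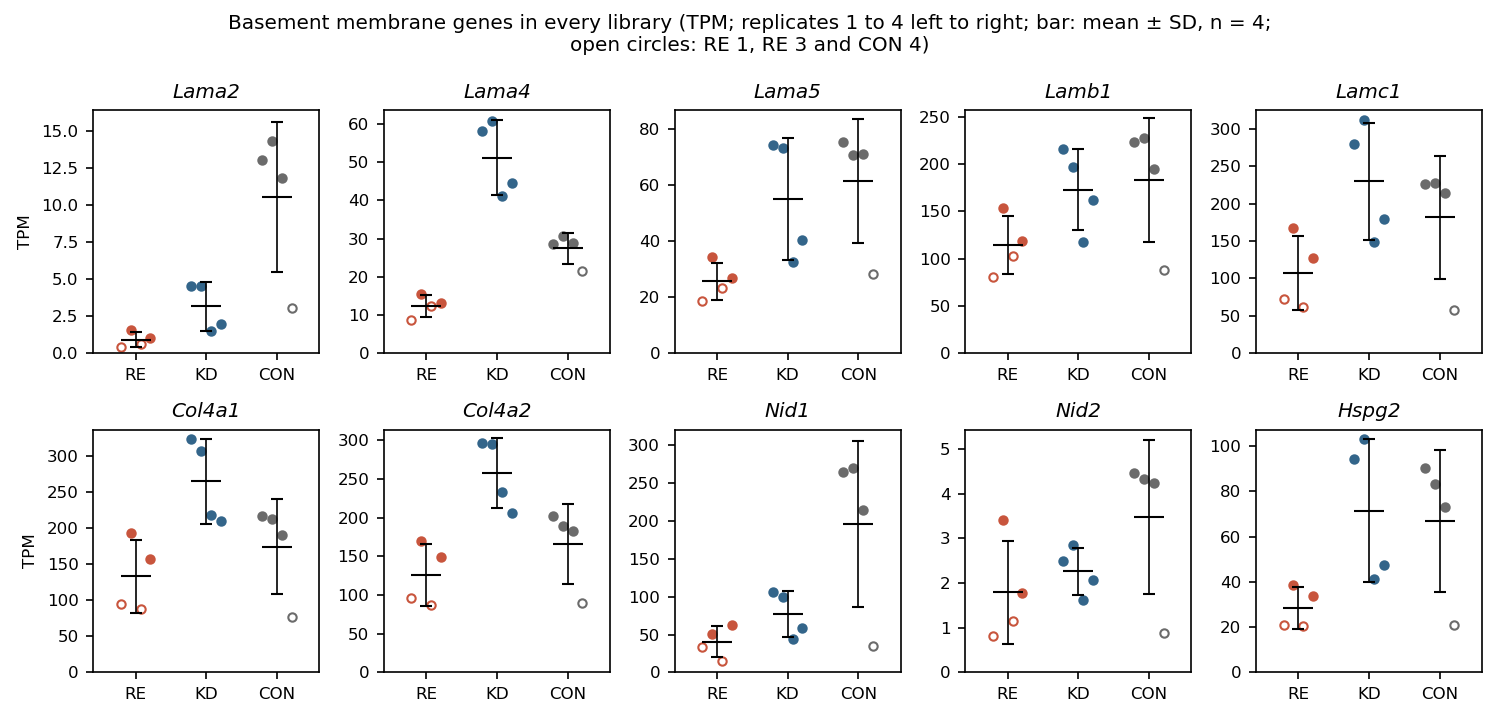
TPM (y axes, each from 0) of the 10 genes in the 4 RE, 4 KD and 4 CON libraries, with the mean and SD of each group. Open circles mark RE 1, RE 3 and CON 4, of which 1 holds the lowest value of its group in every panel, and Lama4 shows 3 separate levels.

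Lama4 was the 1 gene of the 10 that passed the test in all 3 comparisons: it was higher in KD than in CON, and lower in RE than in either. It encodes the laminin alpha 4 chain, found in vessel walls, fat and muscle, and lies on chromosome 10 (38965515 to 39110188, plus strand). It stood at 8.63, 15.4, 12.4 and 13.0 TPM in RE 1 to RE 4, at 58.2, 60.8, 41.2 and 44.5 TPM in KD 1 to KD 4, and at 28.6, 30.8, 28.8 and 21.5 TPM in CON 1 to CON 4. No 2 groups overlapped. The group means were 12.4 ± 2.81 TPM in RE, 51.2 ± 9.775 TPM in KD and 27.4 ± 4.07 TPM in CON (SD, n = 4 each).

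The rise of Lama4 in KD against CON was 0.87 ± 0.21 (SE, 95% interval 0.42 to 1.32, limma adjusted p = 0.0176). It was 0.87 after the length correction (limma adjusted p = 0.0154) and 0.76 without CON 4, RE 1 and RE 3 (limma adjusted p = 0.00421), but its call was lost without KD 1 (0.80, limma adjusted p = 0.06625) or KD 2 (0.78, limma adjusted p = 0.0702). The fall in RE against KD was -1.97 ± 0.21 (95% interval -2.42 to -1.52, limma adjusted p = 0.00263), -1.30 after the correction (limma adjusted p = 0.0202) and -1.76 without the 3 libraries (limma adjusted p = 0.00382). Against CON, RE was lower by -1.10 ± 0.21 (limma adjusted p = 0.00656), and by -1.0 without the 3 libraries (limma adjusted p = 0.00588). The correction took this last difference to -0.44, which missed the threshold (95% interval -0.92 to 0.04, limma adjusted p = 0.201).

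Lama2, for the alpha 2 chain of the muscle fibre sheath, was lower in RE than in CON. It lies on chromosome 10 (26980036 to 27619758, minus strand). It stood at 0.397, 1.56, 0.588 and 1.05 TPM in RE 1 to RE 4, at 4.55, 4.56, 1.51 and 1.99 TPM in KD 1 to KD 4, and at 13.0, 14.3, 11.8 and 3.06 TPM in CON 1 to CON 4. All RE libraries lay below all CON libraries, and KD overlapped CON only through CON 4. The difference of RE from CON was -2.48 ± 0.43 (95% interval -3.40 to -1.55, limma adjusted p = 0.00361), -1.54 after the length correction (limma adjusted p = 2.66e-05) and -2.615 without the 3 libraries (limma adjusted p = 0.0012).

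Between KD and CON, Lama2 differed by -1.40 ± 0.43, just short of the threshold (95% interval -2.32 to -0.47, limma adjusted p = 0.057). It passed after the length correction at -1.34 (limma adjusted p = 6.57e-05), without the 3 libraries at -1.85 (limma adjusted p = 0.00124) and without CON 4 alone at -1.85 (limma adjusted p = 0.00169). RE against KD differed by -1.08 ± 0.43 (limma adjusted p = 0.154), which the correction took to -0.20 (95% interval -0.52 to 0.11, limma adjusted p = 0.373).

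Lama5, for the widespread alpha 5 chain, did not pass in any comparison with all 12 libraries. It lies on chromosome 2 (180176373 to 180225859, minus strand) and ranged over 18.5 to 34.3 TPM in RE, 32.6 to 74.4 TPM in KD and 28.4 to 75.4 TPM in CON. Its difference was -0.14 in KD against CON (95% interval -0.91 to 0.62), -1.02 in RE against KD (-1.79 to -0.25) and -1.16 in RE against CON (-1.93 to -0.39), with limma adjusted p = 0.884, 0.133 and 0.0766. After the length correction the last of these was -0.13 (95% interval -0.50 to 0.23), and without the 3 libraries it was -1.23 (limma adjusted p = 0.022).

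**Figure D3:**
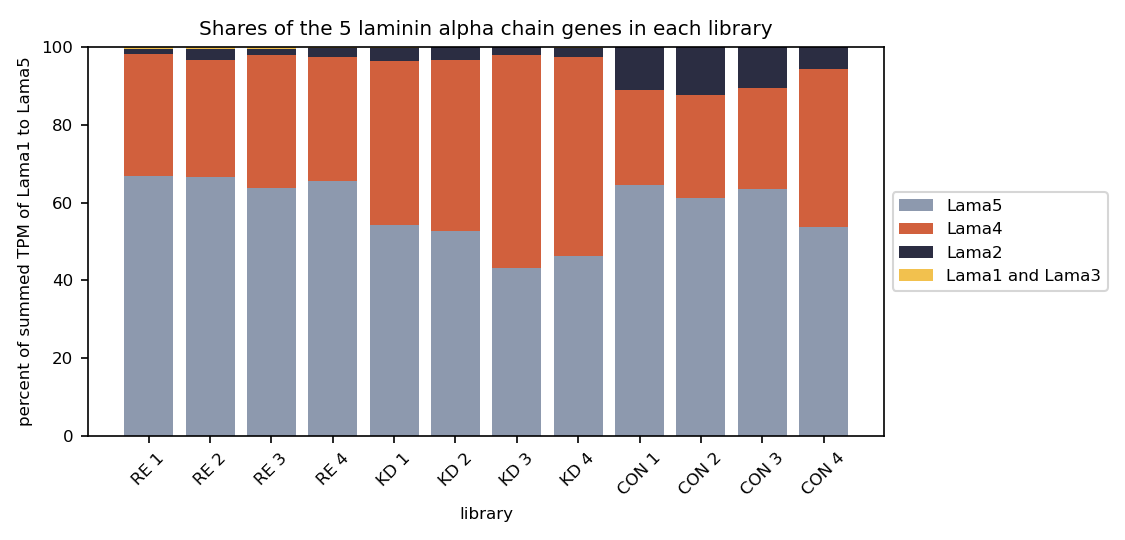
Share of each laminin alpha chain gene in the summed TPM of Lama1 to Lama5 (y axis, percent) in each library (x axis). Lama4 takes 42.4% to 54.6% in KD, and Lama2 takes at least 5.78% in CON and at most 3.31% in the other libraries.

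As deposited, the make-up of the alpha chain pool differed between the groups. Lama4 made 31.8% ± 1.76 of the summed alpha chain TPM in RE, 48.0% ± 5.85 in KD and 29.3% ± 7.56 in CON (SD, n = 4 each). Lama2 made 2.16% ± 0.759 in RE, 2.72% ± 0.68 in KD and 9.96% ± 2.88 in CON. Lama5 took most of the rest, with 65.7% ± 1.41 in RE, 49.1% ± 5.18 in KD and 60.7% ± 4.92 in CON, and Lama1 and Lama3 together stayed below 1%. These shares restate the levels above and were not tested. The transcripts have 6046 bases for Lama4, 9614 for Lama2 and 11388 for Lama5, so the length trend of a library does not cancel in them. No shares were made after the length correction. CON 4 differed from the other CON libraries here as well, with 40.6% Lama4 against 24.4% to 26.5%.

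Lamb1 and Lamc1 encode the beta 1 and gamma 1 chains, which most laminins of muscle and connective tissue share. Lamb1 lies on chromosome 12 (31265234 to 31329644, plus strand) and Lamc1 on chromosome 1 (153218922 to 153332786, minus strand). Lamb1 stood at 81.1, 154, 103 and 119 TPM in RE, at 216, 197, 118 and 162 TPM in KD, and at 224, 227, 195 and 87.9 TPM in CON. Lamc1 stood at 72.5, 167, 61.7 and 127 TPM in RE, at 280, 312, 148 and 179 TPM in KD, and at 227, 228, 214 and 58.2 TPM in CON. The groups overlapped for both genes, and neither passed in any comparison with all 12 libraries.

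The nearest to the threshold was Lamc1 in RE against KD, at -1.14 ± 0.46 (limma adjusted p = 0.156). In KD against CON, Lamc1 differed by 0.46 ± 0.46 (limma adjusted p = 0.634), a value that passed after the length correction at 0.49 (limma adjusted p = 0.0291) and was -0.02 without the 3 libraries. Lamb1 differed between KD and CON by -0.03 (95% interval -0.70 to 0.65), and by -0.03 after the correction, with the narrower interval of -0.32 to 0.25.

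Within a library the ratio of Lamb1 to Lamc1 does not depend on the scale of that library. The transcripts have 5784 bases for Lamb1 and 7622 for Lamc1, however, so the length trend of a library does not cancel in the ratio. Per library the ratio was 1.12, 0.920, 1.67 and 0.934 in RE, 0.771, 0.633, 0.793 and 0.903 in KD, and 0.987, 0.997, 0.912 and 1.51 in CON. The ratio was lowest in KD: every KD value lay below every RE and every CON value. The log2 ratio differed by -0.49 in KD against CON and by 0.55 in RE against KD, each with an exact two-sided permutation p = 0.0286, the smallest that 4 against 4 libraries allow, and p = 0.129 adjusted over the 9 ratio tests made here. RE 3 and CON 4 were the highest, and without CON 4, RE 1 and RE 3 the differences were -0.33 and 0.27. These differences missed the threshold once adjusted. With 4 against 4 libraries and 9 tests, however, no ratio could pass unless most of the 9 reached that smallest p. The adjusted test therefore cannot decide whether this ratio differed.

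Col4a1 and Col4a2 averaged 1.52 and 1.55 times as many TPM in KD as in CON, and their calls depended on how the long transcripts were treated. Col4a1 stood at 95.1, 193, 87.5 and 157 TPM in RE, at 325, 307, 219 and 211 TPM in KD, and at 217, 213, 191 and 77.2 TPM in CON. Col4a2 stood at 95.5, 170, 87.5 and 149 TPM in RE, at 296, 294, 233 and 206 TPM in KD, and at 202, 189, 182 and 90.2 TPM in CON. KD was the highest group for both, lying above all RE libraries for both genes and above all CON libraries for Col4a2.

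With all 12 libraries, KD against CON gave 0.69 ± 0.35 for Col4a1 (95% interval -0.07 to 1.44, limma adjusted p = 0.263) and 0.68 ± 0.28 for Col4a2 (95% interval 0.07 to 1.29, limma adjusted p = 0.161). After the length correction the values were 0.69 and 0.69 and both passed (limma adjusted p = 0.000765 and 0.0021). Without the 3 libraries they were 0.33 and 0.41, and Col4a2 passed (limma adjusted p = 0.133 and 0.0382). RE against KD gave -1.04 ± 0.35 and -1.07 ± 0.28, short of the threshold (limma adjusted p = 0.128 and 0.0823), and -0.33 and -0.37 after the correction. Against CON, Col4a1 turned round in RE, being -0.36 with all libraries (limma adjusted p = 0.46) and 0.36 after the correction (limma adjusted p = 0.0403).

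The ratio of the collagen IV chains hardly moved. Col4a1 to Col4a2 was 0.996, 1.14, 1.00 and 1.06 in RE, 1.10, 1.04, 0.942 and 1.02 in KD, and 1.08, 1.12, 1.05 and 0.856 in CON. The group differences of the log2 ratio were 0.01 in KD against CON, 0.03 in RE against KD and 0.04 in RE against CON (exact two-sided permutation p = 0.971, 0.686 and 0.771). The SD within a group was 0.09 in RE, 0.09 in KD and 0.17 in CON, so a shift of the ratio below those SDs could not be seen here.

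**Figure D4:**
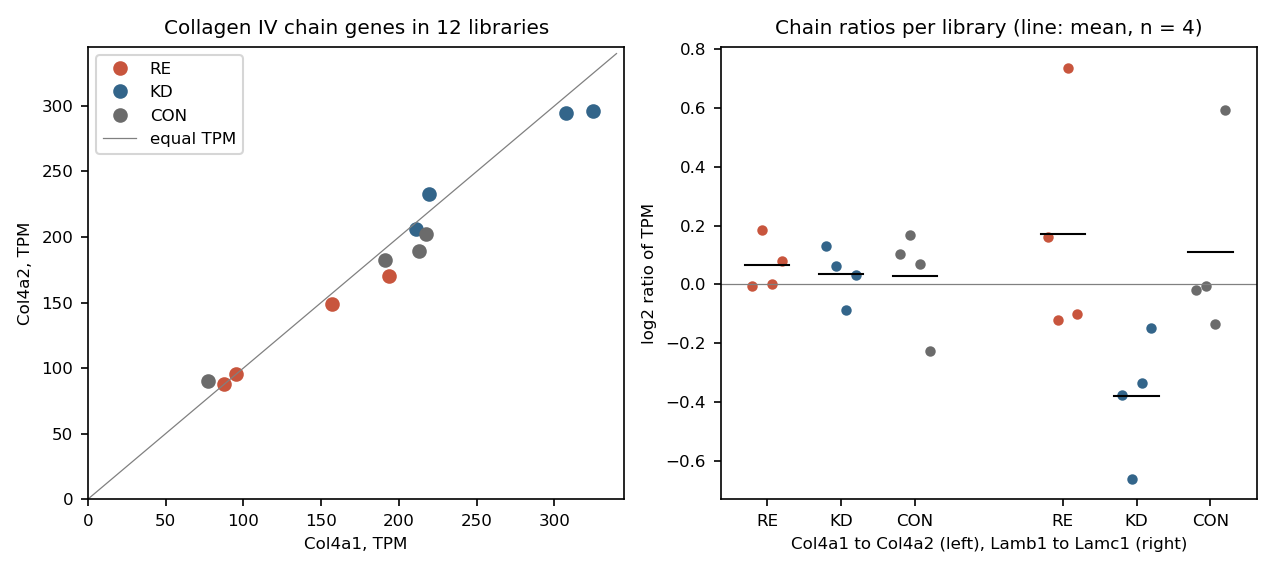
Left, TPM of Col4a2 (y axis) against Col4a1 (x axis) in the 12 libraries, with the line of equal TPM. Right, log2 ratio of TPM (y axis) for both chain pairs by group, 4 libraries each, with a line at the mean. The collagen IV points stay close to the line at all levels, and the Lamb1 to Lamc1 ratio is lowest in KD.

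Nid1, for nidogen 1, the main linker between laminin and collagen IV, was the gene of this set most abundant in CON 1, CON 2 and CON 3. It lies on chromosome 13 (13437551 to 13512269, plus strand). It stood at 33.8, 50.7, 15.6 and 62.5 TPM in RE, at 106, 99.5, 44.3 and 59.0 TPM in KD, and at 265, 270, 214 and 35.5 TPM in CON. All RE and KD libraries lay below CON 1, CON 2 and CON 3, and CON 4 lay below all KD libraries.

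With all 12 libraries as deposited, neither contrast of Nid1 with CON passed. KD gave -1.07 ± 0.62 (95% interval -2.42 to 0.28, limma adjusted p = 0.34) and RE gave -2.06 ± 0.62 (95% interval -3.40 to -0.71, limma adjusted p = 0.0741). The length correction left -1.07 in KD against CON (limma adjusted p = 0.0329) and -1.39 in RE against CON (limma adjusted p = 0.0148). Without the 3 libraries they were -1.76 (limma adjusted p = 0.00118) and -2.12 (limma adjusted p = 0.00276). RE against KD gave -0.99 (95% interval -2.33 to 0.36) for Nid1, and -0.32 after the correction (-1.02 to 0.39).

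Nid2, for the related nidogen 2, had the lowest mean TPM of the 10 genes in KD and in CON, although Lama2 was lower than Nid2 in KD 3 and KD 4. It lies on chromosome 14 (19751265 to 19811787, plus strand) and ranged over 0.815 to 3.41 TPM in RE, 1.63 to 2.86 TPM in KD and 0.893 to 4.46 TPM in CON. It passed in no comparison with all 12 libraries, and in KD against CON it was -0.35 with all libraries (95% interval -1.14 to 0.44) and -0.72 without the 3 libraries (limma adjusted p = 0.0176). Nid1 exceeded Nid2 by a factor of 13.5 to 41.4 in RE, 27.2 to 42.3 in KD and 39.8 to 62.3 in CON. The log2 of that ratio differed by -0.68 in KD against CON, by -0.49 in RE against KD and by -1.17 in RE against CON (exact two-sided permutation p = 0.0571, 0.343 and 0.0571, adjusted p = 0.129, 0.617 and 0.129 over the 9 ratio tests). The RE against KD value was -0.23 without RE 3, -0.28 without RE 2 and -0.77 without RE 1.

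Hspg2, for perlecan, has the longest transcript of the set and lies on chromosome 4 (137468769 to 137570630, plus strand). It stood at 21.1, 38.6, 20.4 and 33.7 TPM in RE, at 94.3, 103, 41.5 and 47.4 TPM in KD, and at 90.2, 83.1, 73.1 and 21 TPM in CON. All RE libraries lay below all KD libraries. RE against KD gave -1.24 ± 0.45 (95% interval -2.23 to -0.26, limma adjusted p = 0.14), and -0.21 after the correction (-0.42 to -0.01, limma adjusted p = 0.195). KD against CON gave 0.18 ± 0.45 (limma adjusted p = 0.891), 0.29 after the correction (limma adjusted p = 0.0443) and -0.30 without the 3 libraries (limma adjusted p = 0.434), so that its sign depended on the treatment.

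**Figure D5:**
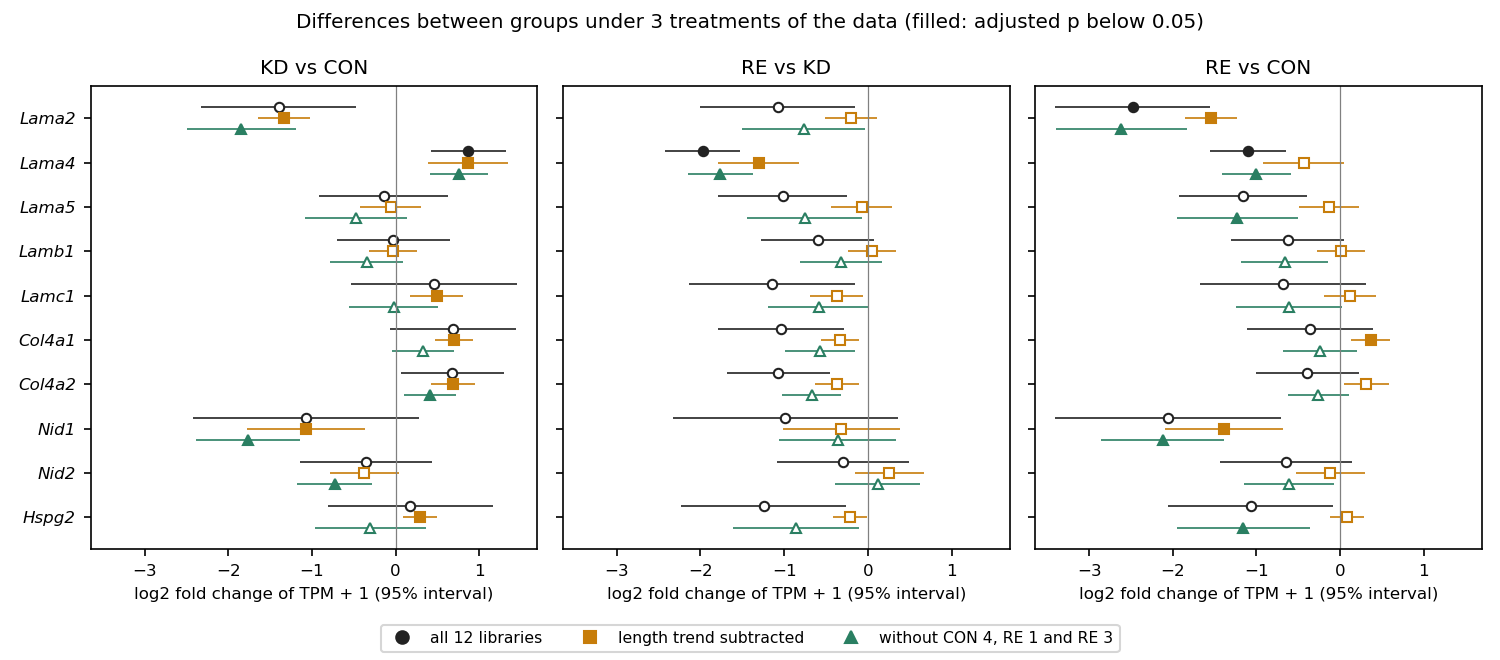
Log2 fold change of TPM + 1 with 95% interval (x axes) for the 10 genes (y axis) in KD against CON, RE against KD and RE against CON. Black circles use all 12 libraries, orange squares the values after the length trend was subtracted and green triangles leave out CON 4, RE 1 and RE 3, and filled symbols have a limma adjusted p below 0.05. In RE against KD all 10 black circles lie below 0, and Lama4 is the only filled one.

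Counted over the set, KD against CON called 1 of the 10 genes higher (Lama4) and 0 lower, where 10.2% of all tested genes were called (6.60% higher and 3.61% lower). The median log2 fold change was 0.08 in the 10 genes and -0.01 in all tested genes. After the length correction 5 were called higher (Lama4, Lamc1, Col4a1, Col4a2 and Hspg2) and 2 lower (Lama2 and Nid1), where 22.5% of all genes were called. Without CON 4, RE 1 and RE 3, 2 were higher (Lama4 and Col4a2) and 3 lower (Lama2, Nid1 and Nid2), where 39.4% of all genes were called. KD lay wholly above CON for 2 genes (Lama4 and Col4a2), as for 11.9% of all tested genes, and wholly below it for 0, as for 7.02%. Median-of-ratios scaling called 3 (Lama4 and Col4a2 higher, Lama2 lower) of the 10, where 13.3% of all genes were called, and leaving out CON 4 alone also called 3 (Lama4 higher, Lama2 and Nid1 lower), where 20.5% were.

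In RE against KD, 1 gene was called lower (Lama4) and 0 higher, where 1.04% of all tested genes were called (0.858% lower and 0.187% higher). All 10 log2 fold changes were negative, with a median of -1.06, but so were 95.7% of those of the 2341 longest genes, whose median was -0.73, and the median over all tested genes was -0.29. Scaling the libraries by the median of ratios moved that general median to 0.00 and that of the 10 genes to -0.73, and the length correction moved the latter to -0.26 with 8 negative. Lama4 was the 1 gene called with each of these, where 0.662% and 1.90% of all genes were called, and without the 3 libraries, where 0.425% were. Leaving out CON 4 alone called 7 of the 10 lower, where 23.7% of all genes were called. CON 4 is in neither group, so it enters only through the estimate of spread that the 12 libraries share. The difference of Col4a1 was -1.04 with and without it, and its SE was 0.347 with it and 0.244 without it. RE lay wholly below KD for 4 genes (Lama4, Col4a1, Col4a2 and Hspg2), as for 10.8% of all tested genes, and wholly above it for 0, as for 3.47%.

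In RE against CON, 2 genes were called lower (Lama2 and Lama4) and 0 higher, where 6.33% of all tested genes were called (3.63% lower and 2.70% higher). The median was -0.88 in the 10 genes, -0.75 in the 2341 longest and -0.27 in all tested genes, and the general median was 0.01 after median-of-ratios scaling, which called 4 lower (Lama2, Lama4, Lama5 and Nid1), where 9.3% of all genes were called. After the length correction 1 was higher (Col4a1) and 2 lower (Lama2 and Nid1), with a median of -0.05, where 13.3% of all genes were called. Without CON 4 alone all 10 were lower, where 52.8% of all genes were called. Without CON 4, RE 1 and RE 3, 5 were lower (Lama2, Lama4, Lama5, Nid1 and Hspg2), where 32.1% were called. RE lay wholly below CON for Lama2 and Lama4, as for 4.76% of all tested genes, and wholly above it for 0, as for 4.46%. The 3 comparisons share libraries in pairs, so their values are not independent of each other.

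Genes whose level followed the mean of the 10 most closely over the 12 libraries were Mgat5 (r = 0.995), Plxnb2 (0.995), AW549877 (0.994), Foxk1 (0.994) and Smarcc2 (0.994), with transcripts of 4562 to 8436 bases. After the length correction they were Slco1a5 (r = 0.942), Fyn (0.933), Inhbb (0.93), C1qtnf1 (0.928) and Apobec1 (0.915), with transcripts of 2265 to 4255 bases. These correlations describe 12 libraries that share length trends and group differences.

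Other components of the basement membrane split in KD against CON. Of 29 listed genes 17 were tested, 3 were higher and 2 lower, with a median of 0.46, beside 6.60% higher and 3.61% lower over all genes. The counts were 7 higher and 3 lower after the length correction, where 22.5% of all genes were called. They were 4 higher and 3 lower without CON 4, RE 1 and RE 3, where 39.4% were called. Sparc, for a collagen-binding glycoprotein and by far the most abundant of them, averaged 2320 ± 146 TPM in RE, 3470 ± 381 TPM in KD and 2410 ± 262 TPM in CON. It was higher in KD than in CON by 0.53 ± 0.12 (limma adjusted p = 0.0153), a call lost without CON 1 or CON 2 (up to 0.0603 without CON 2) and with median-of-ratios scaling. The related calcium-binding genes Smoc2 (1.63 ± 0.21, limma adjusted p = 0.000354) and Smoc1 (1.20 ± 0.17, 0.000711) were higher as well, with means of 0.325 TPM and 0.098 TPM in CON. Npnt, for the integrin ligand nephronectin, averaged 0.475 ± 0.187 TPM in RE, 0.513 ± 0.23 TPM in KD and 6.67 ± 2.69 TPM in CON. It was lower by -2.26 ± 0.28 in KD (limma adjusted p = 0.000297) and by -2.29 ± 0.28 in RE (limma adjusted p = 0.000302) against CON.

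Tinagl1, for a secreted glycoprotein of the tubulointerstitial nephritis antigen family, was lower in KD by -1.05 ± 0.27 (limma adjusted p = 0.0271, up to 0.0798 without CON 2, and lost too without KD 2, KD 4, CON 1 or CON 3 and with the 2 groups alone). In RE against CON it was lower by -1.96 ± 0.27 (limma adjusted p = 0.000784). In RE against KD 0 of the 17 were higher and 3 lower, where 0.187% of all genes were higher and 0.858% lower. The 3 were Col18a1 for collagen XVIII (-0.93 ± 0.19), Lamb2 for the laminin beta 2 chain (-0.90 ± 0.16) and Sparc (-0.58 ± 0.12). All 3 calls were lost after the length correction (limma adjusted p = 0.291, 0.485 and 0.137), and in 8 or 9 of the 12 fits that left out 1 library (up to 0.179). In RE against CON 2 were higher (Smoc1 and Smoc2) and 4 lower (Npnt, Tinagl1, Fbln2 and Col18a1), where 2.70% of all genes were higher and 3.63% lower. The call of Col18a1 was lost after the length correction (-0.74 with all libraries and -0.13 corrected, limma adjusted p = 0.0343 and 0.625) and in 8 of the 12 fits that left out 1 library, and that of Fbln2 in 5 (up to 0.11).

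Among receptors of the basement membrane, 22 genes were listed and 19 tested, and in KD against CON 5 were higher and 0 lower with all 12 libraries, beside 6.60% higher and 3.61% lower over all genes. After the length correction 6 were higher and 1 lower, where 22.5% of all genes were called. The lower 1 was the laminin-binding integrin chain gene Itga6 (-1.23, limma adjusted p = 0.0044). Without CON 4, RE 1 and RE 3, 7 were higher and 4 lower (Itga6, Ddr2, Sspn and Itgb1), where 39.4% of all genes were called. Without KD 1 or KD 2 the count of higher calls was 2. Itgb4, for the integrin beta 4 chain that binds laminin in epithelia, averaged 9.23 ± 1.35 TPM in RE, 12.4 ± 0.783 TPM in KD and 3.18 ± 0.45 TPM in CON. It was higher by 1.69 ± 0.17 in KD (limma adjusted p = 4.92e-05) and by 1.29 ± 0.17 in RE (limma adjusted p = 0.000419) against CON. Itga1, for the collagen-binding integrin alpha 1 chain, averaged 2.45 ± 1.05 TPM in RE, 7.81 ± 4.25 TPM in KD and 1.13 ± 0.646 TPM in CON, and was higher in KD than in CON by 1.95 ± 0.37 (limma adjusted p = 0.00533). These calls held in all 12 fits that left out 1 library.

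The other receptor calls were weaker. Sgcd for delta-sarcoglycan (0.70 ± 0.17, limma adjusted p = 0.0187) was lost without KD 1, KD 2, CON 1 or CON 3 (up to 0.0722 without KD 2). Ddr1 for a collagen receptor kinase (0.59 ± 0.17, limma adjusted p = 0.0423) and Sdc1 for syndecan 1 (0.46 ± 0.13, 0.0484) were each lost in 10 of the 12 fits that left out 1 library. In RE against KD 0 were higher and 0 lower by limma, and 13 of the 19 had an unadjusted p below 0.05, as did 28% of all tested genes. Without CON 4 alone, which enters this comparison only through the shared estimate of spread, 10 of the 19 were lower, where 23.7% of all genes were called. In RE against CON Itgb4 was higher and Itga6 and Sdc2 were lower, where 2.70% of all genes were higher and 3.63% lower. The calls of Itga6 and Sdc2 were lost without single libraries (up to 0.167 for Itga6 and 0.0549 for Sdc2). Dag1, for dystroglycan, passed in no comparison, at 54.5 ± 21.6 TPM in RE, 99 ± 29.2 TPM in KD and 85.3 ± 32.1 TPM in CON.

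Of 26 listed symbols for collagen folding, hydroxylation and cross-linking, some of them older names of the same gene, 20 were tested. In KD against CON 6 were higher and 0 lower with all 12 libraries, with a median of 0.46, beside 6.60% higher and 3.61% lower over all genes. The counts were 7 higher and 0 lower after the length correction, where 22.5% of all genes were called. They were 10 higher and 3 lower (Ctage5, Pxdn and Colgalt1) without CON 4, RE 1 and RE 3, where 39.4% of all genes were called. The 6 were the prolyl hydroxylase genes P4ha2 (1.47 ± 0.17, limma adjusted p = 0.000158), P4ha1 (0.96 ± 0.13, 0.000659) and P4hb (0.83 ± 0.13, 0.0018), P3h1 for prolyl 3-hydroxylase 1 (0.82 ± 0.15, 0.00409), the lysyl hydroxylase gene Plod1 (0.93 ± 0.13, 0.000677) and Loxl2 for a lysyl oxidase that cross-links collagen IV (1.39 ± 0.29, 0.00902). All 6 calls held without any 1 library, after the length correction and without CON 4, RE 1 and RE 3, and that of P4hb was lost with median-of-ratios scaling. P4ha2 averaged 224 ± 30.9 TPM in RE, 282 ± 33.7 TPM in KD and 103 ± 24.6 TPM in CON. In RE against CON P4ha2 (1.13 ± 0.17, limma adjusted p = 0.00135) and P4ha1 (0.58 ± 0.13, 0.0228) were higher and 0 were lower. Over all genes 2.70% were higher and 3.63% lower. The call of P4ha1 was lost without RE 2, RE 4, CON 1, CON 2 or CON 3 (up to 0.0859) and with the 2 groups alone. In RE against KD 1 was lower, Plod1 (-0.62 ± 0.13, limma adjusted p = 0.0479), where 0.858% of all genes were lower. That call was lost after the length correction (0.171) and in 9 of the 12 fits that left out 1 library.

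Proteases that cut basement membrane proteins, listed together with the Timp genes for their inhibitors, changed in both directions. Of 18 listed genes 16 were tested. In KD against CON 4 were higher and 1 lower, beside 6.60% higher and 3.61% lower over all genes. The counts were 5 higher and 3 lower after the length correction, where 22.5% of all genes were called. They were 5 higher and 4 lower without CON 4, RE 1 and RE 3, where 39.4% were called. Timp3 was among the lower genes in both. Mmp2, for the gelatinase that also cuts collagen IV, averaged 0.392 ± 0.295 TPM in RE, 1.44 ± 0.35 TPM in KD and 21 ± 2.42 TPM in CON, and was lower by -3.18 ± 0.19 in KD (limma adjusted p = 7.78e-07) and by -4.00 ± 0.19 in RE (limma adjusted p = 1.55e-07) against CON. Mmp3, for stromelysin 1, averaged 4.84 ± 0.966 TPM in RE, 25.1 ± 11.3 TPM in KD and 4.63 ± 1.29 TPM in CON. It was higher in KD than in CON by 2.16 ± 0.29 (limma adjusted p = 0.000496) and lower in RE than in KD by -2.09 ± 0.29 (limma adjusted p = 0.00862, and 0.0516 without CON 4, RE 1 and RE 3).

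Plat for tissue plasminogen activator (2.003 ± 0.35, limma adjusted p = 0.00287), Adamts5 for an aggrecanase (1.52 ± 0.32, 0.00891) and Ctsl for cathepsin L (0.77 ± 0.15, 0.00519) were also higher in KD than in CON, the last call being lost after the length correction (0.193) and with median-of-ratios scaling. Timp3, for a metalloproteinase inhibitor that is held in the matrix, averaged 11.1 ± 3.42 TPM in RE, 47.7 ± 27.1 TPM in KD and 82.3 ± 27.8 TPM in CON. It was lower in RE than in CON by -2.75 ± 0.40 (limma adjusted p = 0.00118), beside Mmp2.

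Some markers of cell types differed between the groups as well. Of the 7 fibroblast markers tested, limma called 0 higher and 3 lower in KD against CON (Dcn, Fap and Col1a1), where 3.61% of all genes were lower. The means of the uncalled markers in KD and CON were 59.9 and 39.5 TPM for Pdgfra, 8.59 and 6.54 TPM for Postn, 673 and 600 TPM for Col1a2, and 2910 and 2960 TPM for Col3a1. In RE against KD limma called 0 higher and 2 lower (Col1a1 and Col1a2), where 0.858% were lower. In RE against CON it called 0 higher and 5 lower (Dcn, Fap, Col1a1, Col1a2 and Col3a1), where 3.63% were lower. Of the 4 heart muscle markers tested, limma called 1 higher and 0 lower in KD against CON, where 6.60% of all genes were higher. It called 1 higher and 0 lower in RE against CON, where 2.70% were higher. Not called were Tnnt2 (means 20.2 TPM in RE, 15.7 TPM in KD and 20.7 TPM in CON), Myl4 (5.53, 4.75 and 2.23 TPM) and Gata4 (5.65, 7.22 and 8.69 TPM). The called gene was Nkx2-5, a transcription factor of heart muscle, higher in KD (1.10 ± 0.27, limma adjusted p = 0.0229) and in RE (1.63 ± 0.27, limma adjusted p = 0.00309) than in CON. Its means were 18.4 TPM in RE, 12.1 TPM in KD and 5.31 TPM in CON, and the 12 markers of the list summed to 39.5 to 65.5 TPM in RE, 37.2 to 46.5 TPM in KD and 28.6 to 46.5 TPM in CON. The part of these markers in the results was not tested. All marker calls are from the fit of the 12 libraries as deposited, and are not given here after the length correction or with libraries left out. Over all tested genes, leaving out 1 library took the calls in RE against KD from 123 to between 13 and 2791. The 10 endothelial markers, of which only Egfl7 averaged over 1 TPM in any group (1.07 TPM in CON), summed to 0.349 to 1.67 TPM in RE, 0.939 to 1.87 TPM in KD and 1.11 to 1.74 TPM in CON. The 8 smooth muscle and pericyte markers summed to 330 to 1570 TPM in RE, 840 to 1210 TPM in KD and 538 to 1200 TPM in CON, with Rgs5 listed at 0 throughout, and limma called 0 of the 6 tested in any comparison.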

How the data were processed

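RNA sequencing of 12 HL-1 libraries was analysed from 1 table of TPM that the authors deposited, with gene symbols as rows. Per the submitters' processing notes, Trim Galore 0.6.6, TopHat2 2.1.1 and Cufflinks 2.2.1 were used with the mm10 build; how TPM were made, the annotation and the use of strand are not given in the sources used here. The deposited TPM sum to 1000000 in every column, which hides the depth, and a 0 may be a failed estimate. The 4 columns named WT were taken as the CON libraries from the WT genotype label; their numbers match no single sample. The treatment labels of KD and RE count up by 1 in the enzyme and gene names from replicate to replicate, and the titles were followed.

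The filter kept genes averaging 1 TPM or more. On the log2(TPM + 1) scale, which understates the change of low genes, limma 3.58.1 in R 4.3.3 fitted 1 mean for each group to all 12 libraries (two-sided moderated test with a mean-variance trend), adjusted by Benjamini-Hochberg over all 11774 tested genes at 0.05. The limma fit was tried on simulated data for KD against CON, with independent noise for each gene and library and no length trends. That trial therefore does not cover the length trends seen here. Log2 ratios of 3 gene pairs were compared in 3 comparisons by exact permutation. Transcript lengths (longest transcript, GENCODE M21, GRCm38) were found for 99.4% of tested genes, and a loess trend (span 0.5) on log2 length was subtracted from each library as an alternative. The genes, lists and alternatives were chosen with earlier results of these data known. Named from each list were up to 4 called genes per comparison with the largest change, and a few others after their values were seen.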

Additional observations from a re-analysis of the deposited data

Results flagged for a closer look

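Of 39 groups of 4 values examined (10 genes and 3 ratios in 3 groups), 4 held a library whose gap to the nearest other exceeded 0.829 of the group's range. The library was CON 4 each time. For independent normal values chance flags about 1 in 20 such groups, but these groups share libraries and the ratios reuse the genes. The rule flags only a library that stands alone, so a pair of low libraries in the same group, such as RE 1 and RE 3, can hide each other. Lama5 stood at 28.4 TPM in CON 4 and between 70.8 and 75.4 TPM in CON 1, CON 2 and CON 3. Lamc1 stood at 58.2 TPM against 214 to 228 TPM, and Nid2 at 0.893 TPM against 4.25 to 4.46 TPM. The ratio of Lamb1 to Lamc1 was 1.51 in CON 4 and 0.912 to 0.997 in CON 1, CON 2 and CON 3. The median deviation of long transcripts in CON 4 was -0.83, and its part in these values was not tested.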

How the results depend on the processing

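Alternatives changed 1 choice each, except that the replicate block was also combined with the length correction: the pseudocount (0.1), no filter, a filter at 5 TPM, quantile normalization, scaling by the median of ratios, a fit of only the 2 groups compared, the length correction, CON 4, RE 1 and RE 3 left out, each library left out, and, for RE against KD, a replicate block. Of 614 values of the 10 genes under them, 544 kept direction and side of the threshold, 45 newly passed, 20 uncalled values changed sign, 4 lost their call and 1 called value reversed: Col4a1 in RE against CON, at 0.36 after the length correction. Except where a value shows it, the cause was not tested.

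Genes called in KD against CON were 1202 (777 higher, 425 lower), and 1904 with quantile normalization (1067, 837), 1570 with median-of-ratios scaling (888, 682), 2651 after the length correction and 4636 without the 3 libraries. In RE against CON they were 745 (318, 427), and 452 with the filter at 5, 1178 with quantile normalization (672, 506), 1095 with median-of-ratios scaling (595, 500), 409 with the 2 groups alone, 1561 after the correction and 3781 without the 3 libraries. In RE against KD they were 123 (22, 101), and 78 with median-of-ratios scaling (32, 46), 164 with quantile normalization (67, 97), 49 with the 2 groups alone, 224 after the correction and 50 without the 3 libraries. Of the 10 genes, KD against CON called 1, and 3 with median-of-ratios scaling, 2 with quantile normalization, 7 after the correction and 5 without the 3 libraries. RE against CON called 2, and 1 with the filter at 5 (which removes Lama2 and Nid2), 4 with either scaling and 5 without the 3 libraries. The log2 ratio of Col4a1 to Col4a2 in KD against CON was -0.079 without the 3 libraries, and that of Lamb1 to Lamc1 in RE against CON was -0.10 after the correction and -0.057 without them.

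Leaving out 1 library gave 744 (without KD 2) to 2412 (without CON 4) genes in KD against CON, 417 (without CON 3) to 6219 (without CON 4) in RE against CON and 13 (without KD 2) to 2791 (without CON 4) in RE against KD. Of the 10 genes it called 0 (without KD 1 or KD 2) to 3 (without CON 4), 2 to 10 (without CON 4) and 1 to 7 (without CON 4). In RE against KD, CON 4 enters only through the shared estimate of spread. The ratio of Col4a1 to Col4a2 ran from -0.079 to 0.0523 in KD against CON, from -0.0494 to 0.082 in RE against CON and from -0.0107 to 0.0618 in RE against KD, that of Lamb1 to Lamc1 from -0.13 to 0.22 in RE against CON, and that of Nid1 to Nid2 from -0.77 (without RE 1) to -0.23 (without RE 3) in RE against KD.

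With a replicate block, RE against KD called 2021 genes and 8 of the 10 (17.2% of all genes called), and with the length correction added 9 genes and 0 of the 10, Lama4 among those lost. Same-numbered libraries correlated from -0.55 to 0.65, and 1 of 4 KD libraries correlated best with its own number, so the numbers were not taken to pair the libraries. Depth is unknown, and 4 libraries a group limit the precision.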
